A study of Mus musculus with 60 samples.

Results

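LIM homeobox genes encode transcription factors that join a DNA-binding homeodomain to a pair of LIM zinc-finger domains, through which they bind cofactors such as LDB1. They give identity to cells of the head organiser, the neural tube, the pituitary, the eye and the gonad, and most are silent in embryonic stem cells, where Polycomb repressive complex 2 places trimethylation on lysine 27 of histone H3 (H3K27me3) over their CpG-rich starts. Such domains can be lost from a gene when a lineage that uses it arises. The 10 genes examined here, of 21866 protein-coding genes in the annotation, were Lhx1, Lhx2, Lhx3, Lhx4, Lhx5, Lhx6, Lhx8, Lhx9, Lmx1a and Lmx1b. They were taken by name, with earlier results of these data known. They form 5 pairs of related genes (Lhx1 and Lhx5, Lhx3 and Lhx4, Lhx2 and Lhx9, Lhx6 and Lhx8, Lmx1a and Lmx1b), and the results follow these pairs.

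H3K27me3 was mapped by CUT&RUN, in which an antibody guides a nuclease to release the bound chromatin, in male mouse embryonic stem cells differentiating towards anterior neural progenitors. Knockout cells (KO) lacked TET1, an enzyme that oxidises 5-methylcytosine. Mutant cells (MUT) carried a catalytically inactive Tet1 made by CRISPR and homology-directed repair in clones of a wild-type line, and wild-type cells (WT) had normal Tet1. All lines came from B6129S6F1 blastocysts of the Tet1 tm1Koh cross, and the day 5 cultures with XAV had received the Wnt inhibitor XAV939 at 5 µM since day 2. Of the 60 samples, 30 were H3K27me3 libraries and 30 were their IgG controls. Each genotype had 2 lines at each of 5 stages, which were days 0, 2, 3 and 5 and day 5 XAV. WT70 and WT72 were used throughout, KO15 stood beside KO25 at days 0 and 2 and beside KO1 later, and CM59 (MUT) beside CM40 and then CM69. The second KO and MUT lines therefore changed between day 2 and day 3, and a change over that step cannot be told apart from a change of line. For KO25 the title, line and genotype labels agree, but the description field names peak files of WT70, and the title was followed. Values of a pair of lines are given below in ascending line number.

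Libraries held 704 to 3466 peaks. Peaks carry a total signal that is not scaled for depth, so a gene was described by the place of its strongest promoter peak in the order of its own library, where place 1 is the highest total signal and a larger number means a weaker peak. The summed width of the promoter peaks, within 1.5 kb of a start site, was the other measure. Differences in place are on the log2 scale, so that a positive value means that the first-named group lies further down the order. H3K27me3 peaks do not show whether Tet1 itself was deleted, and the labels were not checked by it. In such bulk samples, fewer cells carrying the mark and less mark per cell cannot be told apart. KO cells at day 5 are described by the study as mostly mesoderm and endoderm and WT cells as ectoderm, so that genotype and cell type cannot be told apart at that stage.

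The promoters are shown first, since Polycomb is known to settle at CpG-rich starts. RefSeq entries (GRCm38.p6) were found for 9 of the 10 genes, with 13 start sites. The 250 bases before the start held a median of 14 CpG sites over these 13 entries, with a range of 4 (Lhx8 and Lhx9) to 26 (Lhx1), against a median of 6 over all 32851 entries. The homeodomain core TAATTA, which reads the same on both strands, was in 0 of the 13 and in 4.84% of all entries. The upstream sequences of Lhx1, Lhx3 and Lmx1b, whose domains are described at most length, are printed 5′ to 3′ with CpG sites in capitals. All 3 lie on the minus strand, at chr11:84525535-84525784, chr2:26208250-26208499 and chr2:33641099-33641348.
Lhx1: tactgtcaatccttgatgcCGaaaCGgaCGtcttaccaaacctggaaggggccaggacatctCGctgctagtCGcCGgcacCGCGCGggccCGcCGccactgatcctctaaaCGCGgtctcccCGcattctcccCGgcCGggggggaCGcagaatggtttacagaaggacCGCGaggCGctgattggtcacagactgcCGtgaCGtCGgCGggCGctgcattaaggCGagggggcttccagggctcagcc
Lhx3: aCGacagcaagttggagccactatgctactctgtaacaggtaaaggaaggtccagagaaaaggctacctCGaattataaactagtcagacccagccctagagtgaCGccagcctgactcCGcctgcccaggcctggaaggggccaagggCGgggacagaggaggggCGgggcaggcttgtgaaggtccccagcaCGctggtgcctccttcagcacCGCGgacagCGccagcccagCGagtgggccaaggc
Lmx1b: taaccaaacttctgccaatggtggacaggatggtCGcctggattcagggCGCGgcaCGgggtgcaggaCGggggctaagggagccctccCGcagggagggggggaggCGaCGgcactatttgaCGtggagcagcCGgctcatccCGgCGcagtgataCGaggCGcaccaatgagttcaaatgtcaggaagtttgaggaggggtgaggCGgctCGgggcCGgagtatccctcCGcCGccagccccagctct
These windows held 26, 11 and 19 CpG sites, more than 90.4%, 64.4% and 80.3% of all promoter entries. A further Lhx3 entry, not printed, lies at chr2:26206576-26206825 and held 22 CpG sites, more than 85.2% of all entries.

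H3K27me3 at the starts of these 10 LIM homeobox genes was almost constant in presence and varied in strength. Isl1 and Isl2, also LIM homeobox genes, were not among the 10 and are given below. Isl1 was called less often, and Isl2 in all 30 libraries. The promoters of 8 of the 10 genes were called in all 30 libraries, against 2.01% of all protein-coding genes. Lhx9 was called in 29, missing in CM69 at day 5, and Lhx3 in 28, missing in KO15 at day 0 and in CM59 at day 5 XAV. All 10 were called in at least 24 libraries, against 4.02% of all genes. The median over the 10 genes of the median place was 91.25, against 501 for the other 870 genes called in at least 24 libraries. Their median width was 15.4 kb, against 7.02 kb. By median place, Lhx2 came first at 23.5, followed by Lhx1 at 47.5 and Lmx1b at 63.5, and 6 of the 10 genes lay within the first 100 places. Lhx9 came last at 323, and Lmx1a had a median place of 255.5. Because presence hardly varied, tests of presence could not separate genotypes for these genes. Over all stages, 55.4% of 2857 promoters had a peak in more KO than WT libraries and 10.2% in fewer, and 0 passed the exact conditional test after adjustment (117 at an unadjusted p under 0.05, lowest adjusted p = 0.844). KO libraries often held more peaks than WT libraries, and with the same number of peaks taken from every library 416 of 1165 promoters had a peak in more KO libraries and 340 in fewer. With equal numbers within each stage these counts were 594 and 516 of 1808.

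**Figure D1:**
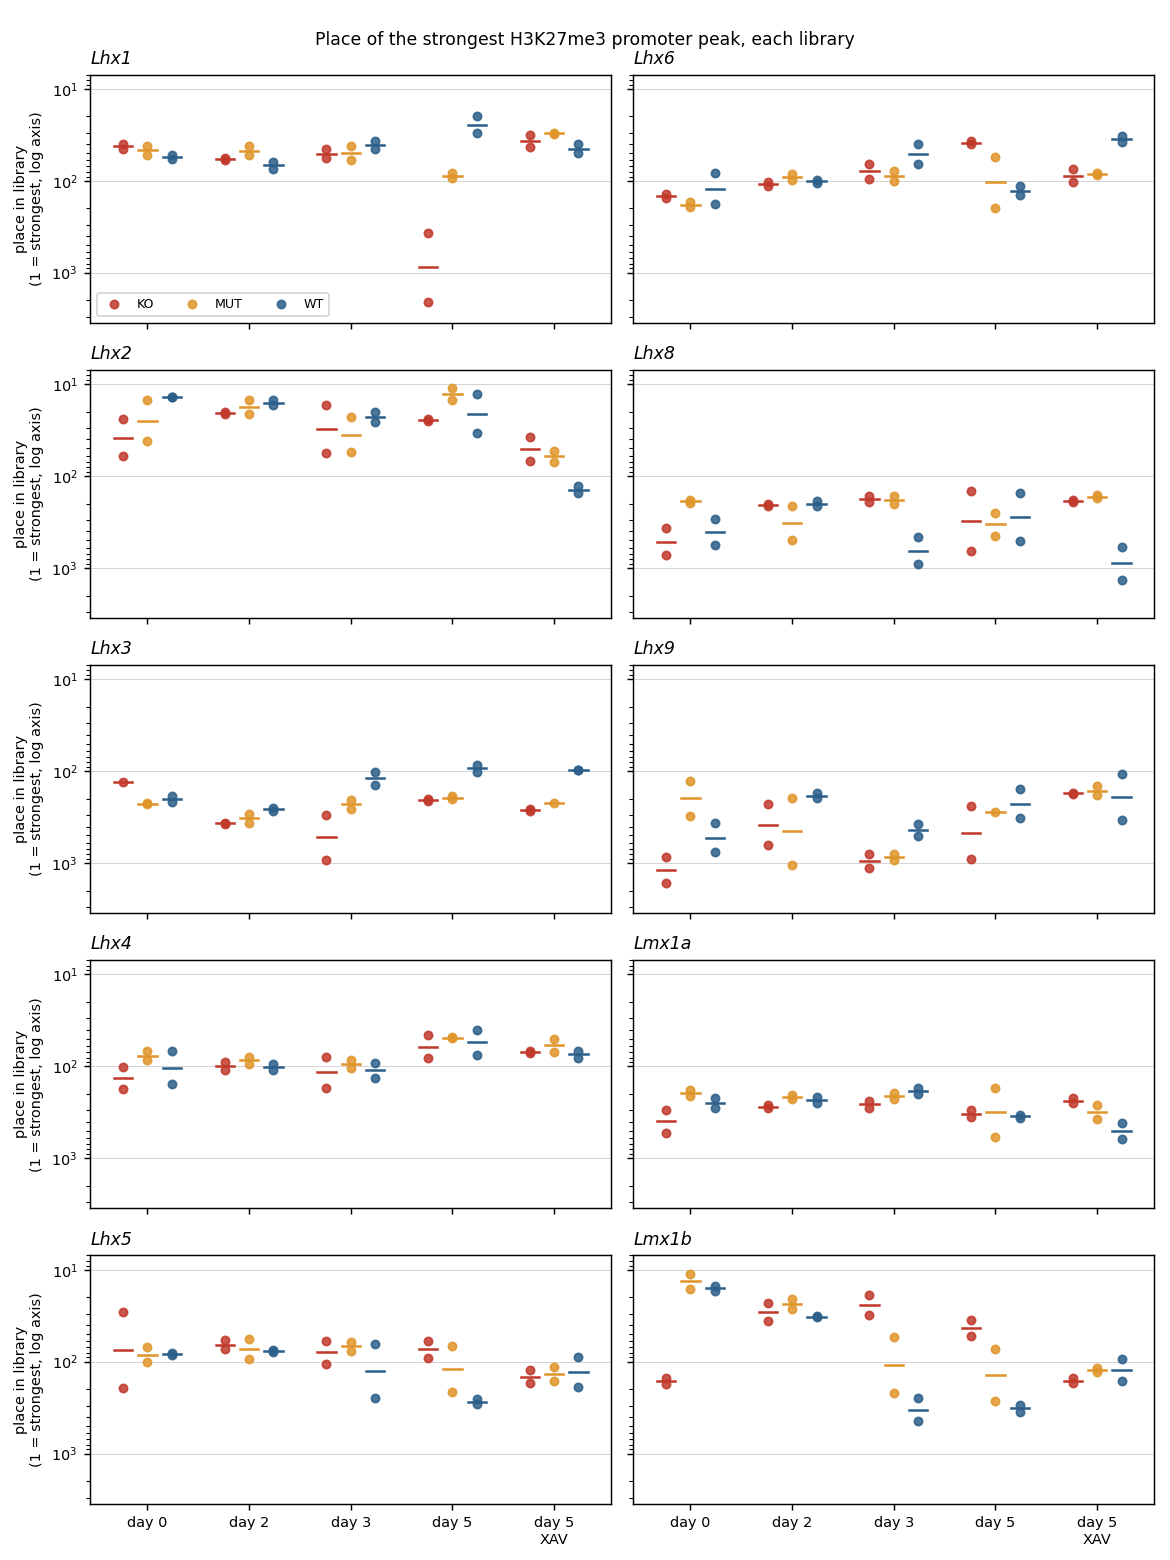
Place of the strongest promoter peak of each LIM homeobox gene (vertical log axis, place 1 at the top) across the 5 stages (horizontal axis), each point being a library, with a bar at the geometric mean of KO, MUT and WT from left to right. Lhx1 in KO at day 5 reaches places 2068 and 369, while WT lies at 20 and 30.

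Lhx1, which is needed in the anterior organiser tissue that patterns the mouse head and in the intermediate mesoderm, lost ground in KO cells at day 5 and held it with XAV. The gene (ENSMUSG00000018698.15) lies on the minus strand at chr11:84518284-84525535. In KO libraries its place was 45 and 40 (day 0), 59 and 56 (day 2), 57 and 45 (day 3), 2068 and 369 (day 5), and 32 and 43 (day 5 XAV). In MUT libraries it was 42 and 52, 53 and 42, 42 and 60, 83 and 93, and 31 and 30 at the same stages. In WT libraries it was 52 and 58, 62 and 74, 37 and 45, 20 and 30, and 40 and 50. Apart from day 5, no Lhx1 place exceeded 74, and at day 5 the 3 genotypes did not overlap. The geometric mean at day 5 was 874 in KO, 87.9 in MUT and 24.5 in WT cells.

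At day 5 the Lhx1 peak lay 5.16 ± 0.48 (log2, SE, n = 2 lines each) further down the order in KO than in WT cells (limma, adjusted p = 4.96e-06). In that contrast 11.4% of 861 promoters moved down and 6.5% moved up. KO lay 3.31 ± 0.48 below MUT (adjusted p = 0.000792, where 6.85% of 876 promoters moved down). This call was lost when peaks were ordered by their highest point or on a percentile scale. The means of KO minus MUT after day 2 (1.20 ± 0.28) and over all 5 stages (0.75 ± 0.22) also passed (adjusted p = 0.0147 and 0.0289, background 5.04% and 9.04%), where the stages other than day 5 gave -0.14, 0.28, 0.01 and 0.28. The mean after day 2 was lost without CM59 or CM69 and the mean over all stages without CM40, CM59, CM69 or KO25, and both were lost by the highest point and on a percentile scale. MUT lay 1.84 ± 0.48 below WT (adjusted p = 0.0381, background 3.93%), but this call was lost when any single MUT or WT line was left out (adjusted p 0.134 to 0.395) and when peaks up to 3 kb apart were joined, an alternative chosen after the data were seen (0.87, adjusted p = 0.345). Within KO cells, XAV moved Lhx1 up by -4.56 ± 0.48 (adjusted p = 7.72e-06, background 15.5%), and the change from day 0 to day 5 in KO was 4.36 ± 0.48 (adjusted p = 4.01e-06, background 20.4%). XAV gave -1.53 ± 0.48 in MUT (adjusted p = 0.083) and 0.87 ± 0.48 in WT cells (adjusted p = 0.389), neither past the threshold. The effect of XAV in KO less that in WT was -5.43 ± 0.68 (adjusted p = 0.000167, where 6.84% of 848 promoters moved up), and the step from day 0 to day 5 in KO less that in WT was 5.53 ± 0.68 (adjusted p = 0.000128, background 5.95%). At day 5 the libraries held 2122 and 2738 peaks in KO, 2847 and 1191 in MUT, and 1270 and 1385 in WT cells, so the KO1 place of 2068 lies beyond the length of either WT list. On a percentile scale the KO difference from WT at day 5 and the step to day 5 in KO stayed past the threshold, and the XAV shift and both differences of effects between KO and WT did not. The KO lines differed in extent. In KO1 at day 5 the peak was 5.17 kb wide, covered 0 kb of the 15 kb before the gene's 5′ end and lay wholly within the gene. In KO15 it was 12.8 kb wide with 5.53 kb before that end, near the 5.85 and 7.85 kb of the WT lines. Widths at day 5 were 17.7 and 19.2 kb in WT, and the width difference did not pass the test (-1.18 ± 0.31, adjusted p = 0.0584). With XAV the KO domain was 21.2 and 19.7 kb wide, a rise of 1.33 ± 0.31 over KO without XAV (adjusted p = 0.0375, where 1.83% of promoters widened) that was lost after joining (1.14, adjusted p = 0.144) and without KO1 (0.63, adjusted p = 0.461). With either KO line left out the place difference stayed past the threshold. The stretch covered in every library was 5.08 kb within the gene (chr11:84519488-84524569, 37.4% exon and 62.6% intron). An antisense transcript, Lhx1os, starts beside Lhx1, and the mark has no strand, so the promoters cannot be told apart. Aatf, a neighbouring gene, shared the Lhx1 peak in at least 1 library, so the outer parts of this domain are not Lhx1's alone.

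Lhx5, the relative of Lhx1 that acts in the forebrain and hippocampus, had no call in any contrast. Its place was 59 and 91 in KO, 68 and 211 in MUT, and 253 and 291 in WT cells at day 5, and -1.89 ± 0.73 separated KO from WT (adjusted p = 0.0836). At day 3 it was 59 and 106 in KO, 61 and 76 in MUT, and 250 and 65 in WT cells. Over all 30 libraries it ranged from 29 to 291. The direction at day 5 was thus opposite to that of Lhx1, but the difference between the genes was not tested. The stretch covered in every library was the shortest of the 10, at 1.48 kb (chr5:120431686-120433161), and the densest in CpG, with 5.49 sites per 100 bases against 4.09 in that of Lhx1.

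**Figure D2:**
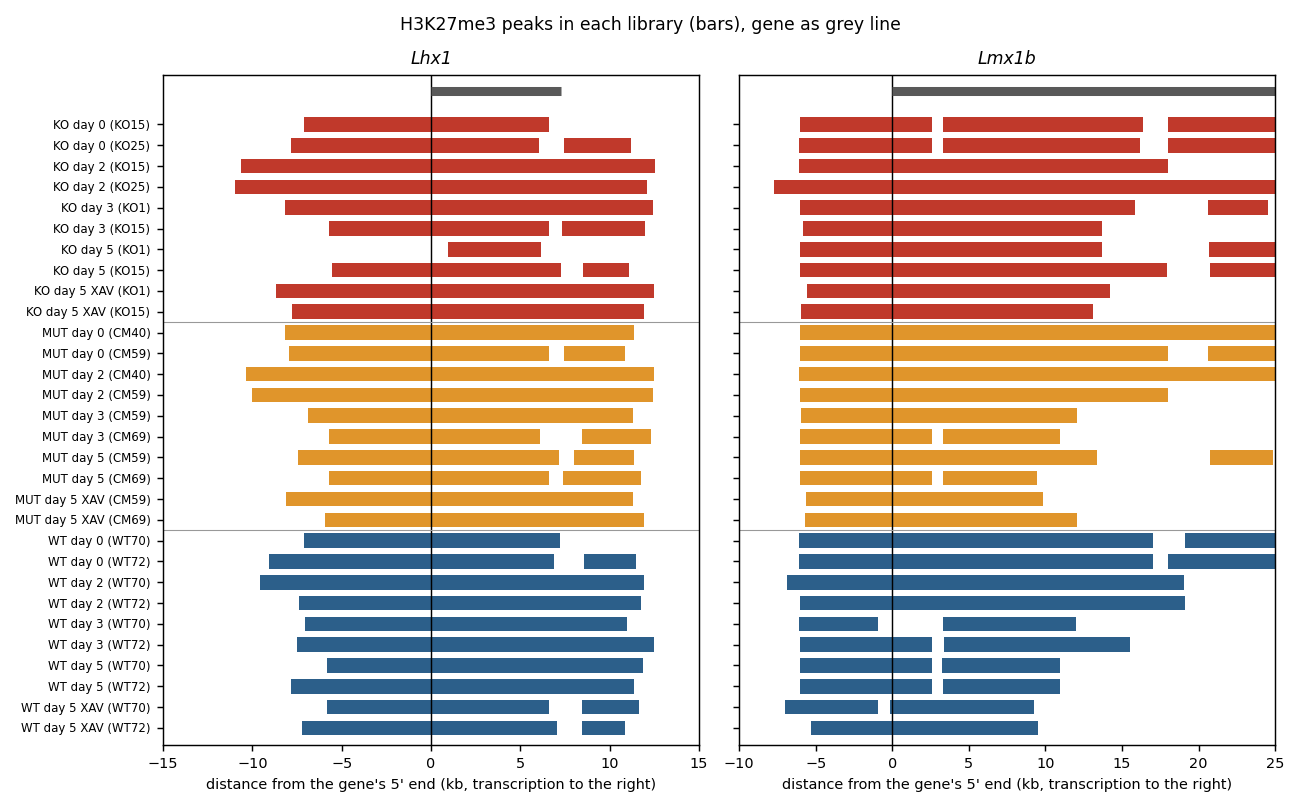
H3K27me3 peaks (bars) around Lhx1 and Lmx1b in each of the 30 libraries (rows, KO above MUT above WT), by distance from the gene's 5′ end in kb, with the gene as a grey line. At Lhx1 the KO1 library of day 5 keeps a 5.17 kb peak inside the gene alone, and at Lmx1b the domain is broken inside the gene in both KO libraries of day 0 and both WT libraries of day 5.

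Lhx3 drives formation of the pituitary and of motor neurons together with Lhx4. After day 2 Lhx3 was weaker by place in KO and MUT than in WT cells. The calls for Lhx3 depended on how peaks were ordered. In KO libraries its place was 130 in KO25 (day 0), 373 and 362 (day 2), 297 and 914 (day 3), 213 and 201 (day 5), and 258 and 272 (day 5 XAV). In MUT libraries it was 230 and 220, 362 and 289, 258 and 204, and 200 and 188 from day 0 to day 5, and 224 in CM69 at day 5 XAV. In WT libraries it was 216 and 185, 251 and 269, 101 and 142, 86 and 101, and 98 and 97. At day 0 the called KO library, KO25, lay above both WT libraries, while KO15 had no promoter peak. Both MUT libraries lay below both WT libraries at that stage. At day 2 both WT libraries lay above all KO and MUT libraries, and KO and MUT met at 362. No difference from WT passed at either of these stages. From day 3 on, the 6 KO libraries (201 to 914) and the 5 called MUT libraries (188 to 258) all lay below the 6 WT libraries (86 to 142).

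After day 2, KO lay 1.57 ± 0.20 below WT at Lhx3 (limma, adjusted p = 6.45e-05, where 13.3% of 796 promoters moved down and 9.3% up) and MUT 1.06 ± 0.21 below WT (adjusted p = 0.00518, background 8.02% of 798). KO did not pass against MUT (0.51 ± 0.21, adjusted p = 0.169). By stage, the KO difference was 2.12 ± 0.34 (day 3), 1.15 ± 0.34 (day 5) and 1.44 ± 0.34 (day 5 XAV) (adjusted p = 0.00201, 0.0285 and 0.0195, background 2.66%, 11.4% and 2.66%). The day 3 call was lost without WT70 and by the highest point, and those of day 5 and day 5 XAV without WT70 or WT72 and with a 3 kb window. Ordered by the highest point, the day 5 difference turned to -0.30. Over all stages it was 0.92 ± 0.16 for KO and 0.74 ± 0.16 for MUT (adjusted p = 0.00123 and 0.0103, background 12.3% and 6.69%). In WT cells Lhx3 moved up by -1.10 ± 0.34 from day 0 to day 5 (adjusted p = 0.0246, background 18.7%), a call lost without WT70 or WT72 and with a 3 kb window, and 0.0189 when ordered by the highest point. The same step was 0.67 ± 0.42 in KO, where day 0 had only KO25, and -0.21 ± 0.34 in MUT cells, with adjusted p of 0.211 and 0.678. Uncalled libraries were dropped from these fits. Widths at day 5 were 9.78 and 11.0 kb in KO, 11.2 and 8.24 kb in MUT, and 13.3 and 12.5 kb in WT cells. When peaks were ordered by their highest point instead of their total, the calls after day 2 were lost (KO 1.01, adjusted p = 0.092, and MUT 0.89, adjusted p = 0.239). The MUT call was also lost without CM59 or without WT70 (adjusted p = 0.0907 and 0.131), and that over all stages without CM59, WT70 or WT72. Both calls over all stages and the KO call at day 5 XAV were lost by the highest point as well. On a percentile scale every Lhx3 call was lost.

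Lhx4 kept a steady place between 40 and 175. At day 5 it was 46 and 81 in KO, 48 and 49 in MUT, and 40 and 75 in WT cells, with no genotype call. It moved up in KO cells from day 0 to day 5, at -1.12 ± 0.42 (adjusted p = 0.0404, background 22.8%). This call was lost when KO1 or KO15 was left out, by the highest point and on a percentile scale. It was also lost over promoters with a peak in all 30 libraries, and with places taken among such promoters.

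**Figure D3:**
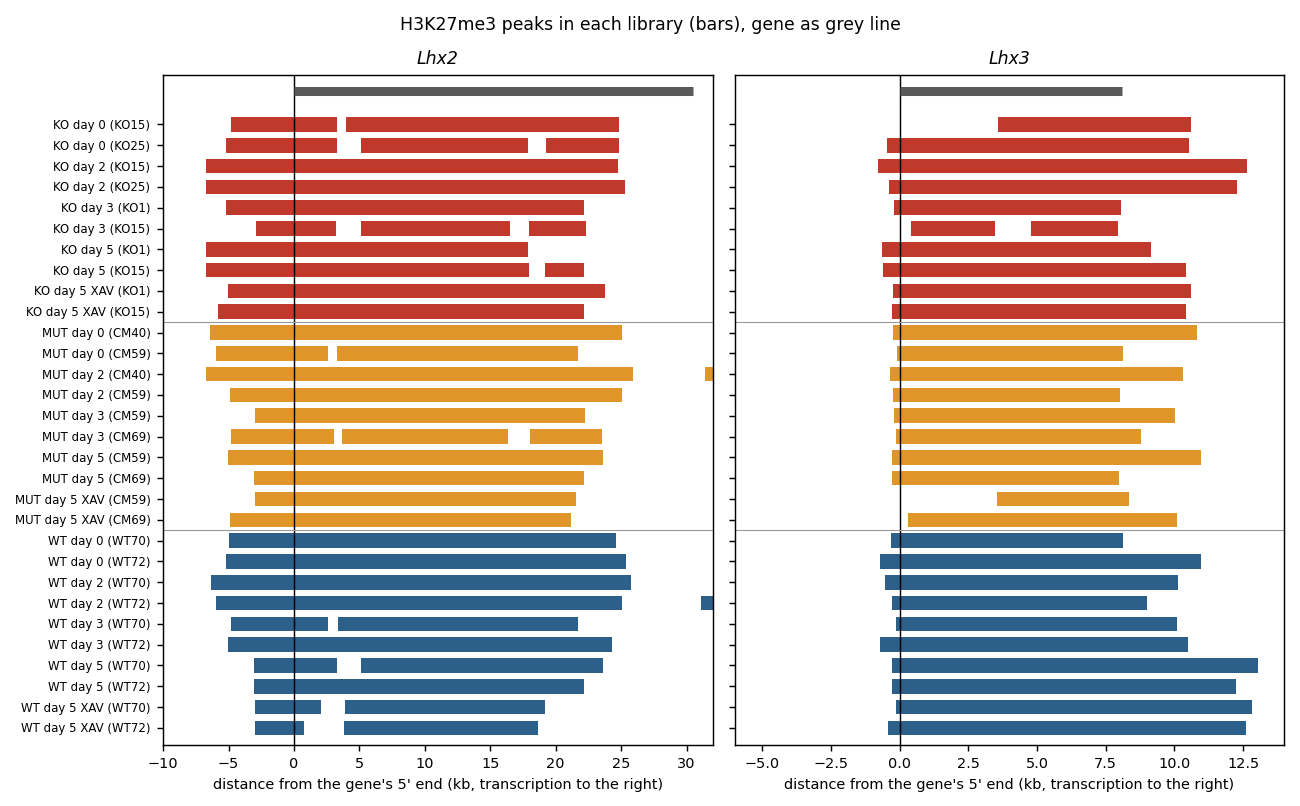
H3K27me3 peaks (bars) around Lhx2 and Lhx3 in each of the 30 libraries (rows, KO above MUT above WT), by distance from the gene's 5′ end in kb, with the gene as a grey line. With XAV, both WT libraries have 2 peaks at the Lhx2 promoters, which sum to 20.3 and 18.6 kb.

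Lhx2, a selector of the cerebral cortex that is also needed for the eye, stood highest in the order by its median place and weakened with XAV. At day 5 its place with XAV was 38 and 69 in KO, 53 and 71 in MUT, and 155 and 130 in WT cells. Without XAV it was 25 and 24 in KO, 15 and 11 in MUT, and 34 and 13 in WT cells. In each genotype both XAV libraries lay below both others. Over the 3 genotypes XAV moved Lhx2 down by 2.02 ± 0.35 (limma, adjusted p = 0.000524, where 13.8% of 842 promoters moved down). Taken singly, the shift was 1.06 ± 0.60 in KO cells (adjusted p = 0.206), 2.26 ± 0.60 in MUT cells (adjusted p = 0.0415, background 2.88%) and 2.76 ± 0.60 in WT cells (adjusted p = 0.0129, background 2.35%). With the line as a fixed term in the day 5 libraries alone, the MUT and WT calls were lost (adjusted p = 0.0791 and 0.0538), as they were when either line of the genotype was left out, and the pooled call held. Ordering by the highest point ended the pooled call (0.64, adjusted p = 0.334), as did the use of the gene's 5′ end alone (2.18, adjusted p = 0.0686). A percentile scale ended the pooled call as well. Each of these alternatives also ended the MUT and WT calls. Summed peak width with XAV was 28.8 and 28.0 kb in KO, 24.5 and 26.1 kb in MUT, and 20.3 and 18.6 kb in WT cells, against 24.6 and 24.6 kb, 28.6 and 25.3 kb, and 24.9 and 25.2 kb without it, and no width difference passed. No genotype contrast passed for Lhx2.

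Lhx9, which is needed for gonad formation, had places from 107 to 1652 and widths from 1.90 to 18.2 kb. At day 0 its place was 1652 and 856 in KO, 128 and 304 in MUT, and 764 and 362 in WT cells. KO lay 2.59 ± 0.79 below MUT (adjusted p = 0.0464, where 6.52% of 859 promoters moved down). This call was lost when peaks were joined (1.19, adjusted p = 0.211) and when any of the 4 lines concerned was left out.

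Lhx6, a factor of migrating GABAergic interneurons, gained in KO cells between day 0 and day 5. In KO cells its place was 37 and 40 at day 5, against 156 and 141 at day 0, a shift of -1.95 ± 0.43 (limma, adjusted p = 0.00169, background 22.8%). Width rose to 23.9 and 20.1 kb at day 5 in KO cells, against 7.61 and 13.1 kb at day 0 (1.13 ± 0.26, adjusted p = 0.0181, where 3.74% of 856 promoters widened). Joining peaks left these KO shifts in place (-2.01 for place and 1.13 for width), but joined places moved up in the other genotypes too. In WT cells they were 190 and 105 at day 0 and 45 and 54 at day 5. In MUT cells they were 118 and 110, and then 81 and 68. Without joining, the step was 0.07 ± 0.43 in WT (adjusted p = 0.908) and -0.82 ± 0.43 in MUT cells (adjusted p = 0.164). On a percentile scale the KO place call was lost. The width call was lost without KO1 or KO15 (adjusted p = 0.120 and 0.247), with the 5′ end alone and with the width of the strongest peak alone, and the place call was lost without KO15 (adjusted p = 0.0533) and when ordered by the highest point (-0.46, adjusted p = 0.655). At day 5 Lhx6 also lay above WT in KO cells (37 and 40, against 115 and 143), by -1.74 ± 0.43 (adjusted p = 0.00936, background 6.5%), and above MUT by -1.43 ± 0.43 (adjusted p = 0.0423, background 3.2%). The difference from MUT was lost after joining (-0.67, adjusted p = 0.199), by the highest point (-0.18) and without KO1, KO15 or CM59 (-0.52 without CM59). The difference from WT was lost without KO1, KO15 or WT72. It was -0.08 after joining (adjusted p = 0.895) and 1.38, the opposite direction, when ordered by the highest point, so it depended on how the domain was split into peaks and ordered. In WT cells XAV moved Lhx6 up to 33 and 38, against 115 and 143 without XAV (-1.86 ± 0.43, adjusted p = 0.019, background 2.58%), and this was 0.04 after joining and was lost without WT70 or WT72.

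Lhx8, which acts in forebrain cholinergic neurons and in oocytes, passed for KO and for MUT against WT only as a mean over the stages after day 2. At day 3 its place was 192 and 164 in KO, 200 and 166 in MUT, and 904 and 465 in WT cells. At day 5 it was 146 and 650 in KO, 444 and 254 in MUT, and 155 and 515 in WT cells, and at day 5 XAV it was 181 and 190 in KO, 163 and 174 in MUT, and 1348 and 593 in WT cells. Of these 3 stages WT overlapped KO and MUT at day 5 only, where KO minus WT was 0.12 and MUT minus WT 0.25. No single stage passed for either difference from WT. The means after day 2 were -1.34 ± 0.38 for KO (adjusted p = 0.0176, background 9.3%) and -1.33 ± 0.38 for MUT (adjusted p = 0.0307, background 3.63%). After joining peaks they were -0.28 and -0.30 (adjusted p = 0.155 and 0.160). The KO call was also lost by the highest point and without KO1 or WT70, and the MUT call was lost in 10 of 14 alternatives, among them each MUT or WT line left out. At day 5 XAV the summed peak width was 13.9 and 12.8 kb in KO, against 1.84 and 5.48 kb in WT cells (2.07 ± 0.56, adjusted p = 0.0411, background 4.86%), and 0.51 after joining (adjusted p = 0.226). This call was also lost with a 3 kb window and without KO1, KO15 or WT70.

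Lmx1b, which patterns the dorsal limb and specifies dopaminergic and serotonergic neurons, stood higher in KO than WT cells at days 3 and 5. The opposite difference at day 0 was not kept when peaks up to 3 kb apart were joined. The gene (ENSMUSG00000038765.13) lies on the minus strand at chr2:33560965-33640511, and its summed promoter peaks spanned 5.13 to 43.7 kb. In KO libraries its place was 152 and 175 (day 0), 36 and 23 (day 2), 31 and 19 (day 3), 52 and 35 (day 5), and 172 and 150 (day 5 XAV). In MUT libraries it was 11 and 16, 27 and 21, 54 and 218, 73 and 266, and 128 and 117. In WT libraries it was 17 and 15, 32 and 33, 446 and 246, 295 and 352, and 162 and 93. KO lay below WT at day 0 and above it at days 3 and 5, without overlap at any of these 3 stages. KO minus WT was 3.35 ± 0.57 (day 0), -3.77 ± 0.57 (day 3) and -2.92 ± 0.57 (day 5; limma, adjusted p = 0.00271, 0.000928 and 0.00189, background 3.37% down, 2.18% up and 6.5% up). The day 0 call was lost without WT70 or WT72, the day 3 call without WT70 (-3.34, adjusted p = 0.0796) and by the highest point, and the day 5 call by the highest point and on a percentile scale. After day 2 together it was -2.10 ± 0.33 (adjusted p = 0.000321), MUT minus WT was -0.94 ± 0.33 (adjusted p = 0.0711), and KO minus MUT was -1.16 ± 0.33 (adjusted p = 0.0382, background 3.98%). The KO minus WT mean stayed past the threshold under every alternative run, and the KO minus MUT mean was lost after joining and without KO1, KO15 or CM69. From day 0 to day 5 Lmx1b moved up by -1.93 ± 0.57 in KO cells (adjusted p = 0.0118, background 22.8%). This call was lost without KO15 or KO25, by the highest point and on a percentile scale. It was also lost with places taken among promoters with a peak in all 30 libraries. Over the same step Lmx1b moved down by 3.39 ± 0.57 in MUT and 4.33 ± 0.57 in WT cells (adjusted p = 0.0003 and 3.29e-05, background 12.8% and 12.3%). XAV moved it down by 1.91 ± 0.57 in KO cells (adjusted p = 0.0221, background 9.47%), a call lost with the line as a fixed term (adjusted p = 0.0914) and without KO1 or KO15. Width differed too, by 1.11 ± 0.22 for KO minus WT after day 2 and -1.90 ± 0.39 for KO minus MUT at day 0 (adjusted p = 0.0122 and 0.037, background 4.9% and 0.233%), and both width calls were lost after joining and without KO15. The step to day 5 in KO less that in WT was -6.27 ± 0.81 in place and 2.75 ± 0.55 in width (adjusted p = 0.00015 and 0.0247, background 4.99% and 2.62%), and the effect of XAV in KO less that in WT was 3.31 ± 0.81 in place (adjusted p = 0.0198, background 2.83%). After joining these 3 differences did not pass.

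The day 0 difference, and the direction of the step to day 5 in KO cells, changed with how the Lmx1b domain was divided into peaks. In 7 libraries the peak over the start ended inside the gene and a further peak began close behind it. These were both KO libraries at day 0, CM69 at days 3 and 5, WT72 at day 3 and both WT libraries at day 5. With peaks up to 3 kb apart joined, the KO places at day 0 were 14 and 12, against 16 and 12 in WT, and the difference was -0.10 (adjusted p = 0.973). At day 3 the joined places were 36 and 33 in KO, 63 and 86 in MUT, and 407 and 79 in WT cells, and at day 5 they were 65 and 32, 100 and 82, and 110 and 134. KO minus WT was then -2.38 (day 3), -1.41 (day 5) and -1.07 (after day 2; adjusted p = 0.0077, 0.0417 and 0.00882), so the later differences were smaller and stayed past the threshold after joining. The step to day 5 in KO cells turned to 1.82 after joining (adjusted p = 0.00544), and stayed positive in MUT (2.77) and WT (3.13).

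Lmx1a, which acts in the roof plate and in midbrain dopaminergic precursors, had places from 171 to 617 and no call in any contrast. After day 2, KO minus WT was -0.24 ± 0.23 and MUT minus WT -0.22 ± 0.23.

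**Figure D4:**
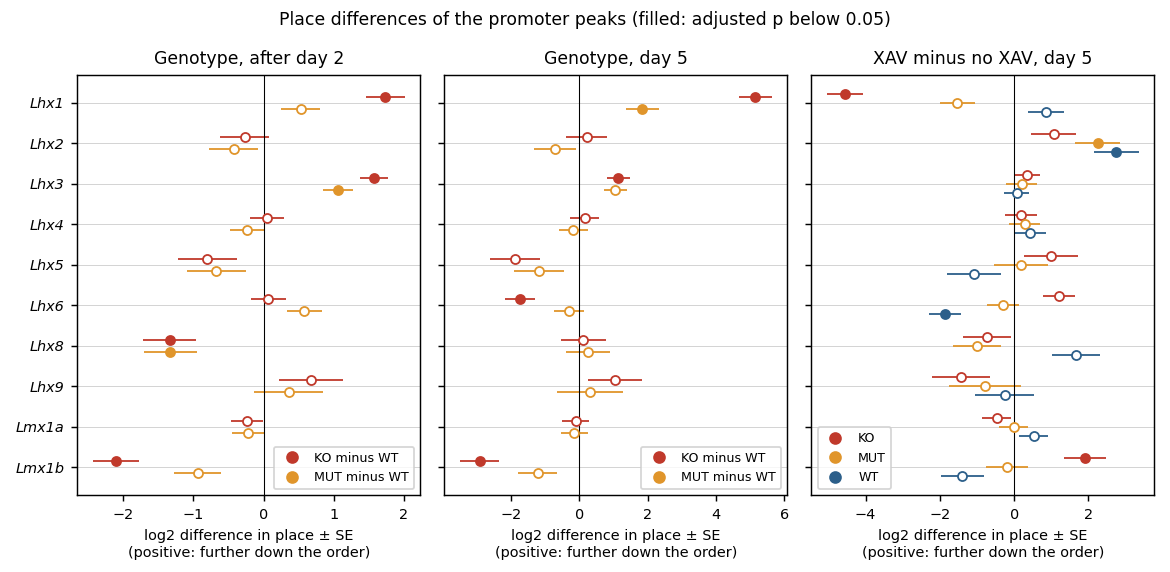
Log2 differences in place ± SE (horizontal axes, positive for further down the order) of the 10 promoters (vertical axis): KO minus WT and MUT minus WT after day 2 and at day 5, and XAV minus no XAV at day 5 in each genotype, with filled points past an adjusted p of 0.05. Lhx1 stands at 5.16 for KO minus WT at day 5 and at -4.56 for XAV in KO cells.

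Counted together, 2 of the 10 genes moved down (Lhx1 and Lhx3) and 2 up (Lhx8 and Lmx1b) in KO against WT cells after day 2, beside a background of 13.3% and 9.3%, with no common direction. Of these calls only that of Lmx1b stayed past the threshold under every alternative run. Those of Lhx1 and Lhx3 were lost by the highest point and on a percentile scale, and that of Lhx8 after joining. The Lhx1 mean after day 2 was 1.73, where day 3 gave 0.31, day 5 gave 5.16 and day 5 XAV gave -0.27. Their median difference was -0.10, against -0.00 over all 796 promoters. In MUT against WT cells after day 2, 1 of the 10 genes moved down (Lhx3) and 1 up (Lhx8), beside a background of 8.02% and 3.63% (median -0.23, against -0.06 over all). Both of these MUT calls were lost by the highest point, on a percentile scale and without CM59 or WT70. As a mean over the 3 genotypes, XAV moved 1 of the 10 genes down (Lhx2) and 1 up (Lhx1), where 13.8% and 15.2% of all promoters moved (median 0.02, against -0.03). The Lhx1 mean combined unlike shifts, at -4.56 in KO, -1.53 in MUT and 0.87 in WT cells. Of these only the KO shift passed, and the WT value had the opposite direction.

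Genes that work with the LIM homeobox factors were marked unevenly. Of 12 cofactors and other LIM genes, 7 were called in 0 libraries (Lmo3, Lmo4, Ldb1, Ldb2, Ssbp2, Ssbp3 and Rlim). The 1 called in all 30 was Isl2, itself a LIM homeobox gene. Isl1, a LIM homeobox gene of motor neurons and second heart field, was called in 14, among them both KO libraries at day 5 XAV (95 and 90), against neither KO library at day 5. In KO against WT cells after day 2, 0 of the 2 tested genes of this list passed. Lmo1, whose product binds LDB1, had places of 352 and 431 in KO cells at day 5, against 1142 in WT72 and no peak in WT70, and no test is read from a single WT library. Of 26 partners and targets, 17 were called in all 30 libraries and 20 entered the test after day 2, of which 5 moved down and 1 up, beside 13.3% and 9.3% of all promoters. Emx2 (2.07 ± 0.55), Foxa2 (1.95 ± 0.45), Nr4a2 (1.54 ± 0.16) and Pax6 (-1.28 ± 0.36) moved most, with adjusted p of 0.0172, 0.00595, 2.03e-05 and 0.0176. Markers of other lineages moved beside Lhx1 in KO cells at day 5. Of the 6 primitive streak markers, 4 were tested and T, Eomes and Gsc moved down (3.04, 2.14 and 1.52), and of the 6 endoderm markers, 5 were tested and Foxa2 and Gata6 moved down, beside 11.4% of all promoters. With XAV the same 3 streak genes and both endoderm genes moved up in KO cells, beside 15.5% of all promoters. Of 6 neural progenitor and 6 mesoderm markers, 0 of 4 and 0 of 3 tested passed in KO against WT cells at day 5. The part of these lineages in the Lhx1 result was not tested. Housekeeping promoters were called in 0 libraries for all 10 genes.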

How the data were processed

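CUT&RUN libraries against H3K27me3 (30) were analysed, and the 30 IgG libraries entered only through peak calling. Reads were trimmed (Trim Galore), aligned to GRCm38.p6 (Bowtie, local mode) and freed of duplicates (Picard) by the authors, who then used SEACR in stringent mode, with the matching IgG, on each library. The SEACR version is not given in the sources used here. The deposited signal per peak, its total and its highest value, is not scaled for depth, and depth is unknown, so it was used only to order peaks within a library. Deposited region lists were not used.

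Promoters were 1.5 kb to either side of the start sites of protein-coding transcripts in GENCODE M21, called at 1 bp of overlap. Log2 place and log2 summed width were fitted in limma 3.58.1 (R 4.3.3) on 15 group means over 880 genes called in at least 24 libraries, with Benjamini-Hochberg adjustment over all tested genes and a threshold of 0.05. Presence was tested by an exact conditional test within stages. Both were tested on simulated data. At a single time point 2 lines stand against 2, the smallest two-sided exact permutation p is 0.333, and limma calls there rest on the spread pooled over all groups. Libraries of 1 line at several stages were treated as separate samples. Lines pair samples across stages, since the same line was sampled. Deviations of the lines at day 5 XAV and day 5 correlated over 439 genes at -0.03 in KO, -0.07 in MUT and -0.12 in WT. Sequences are from RefSeq. The sequence and position of 1 stretch in the Lmx1b gene are not reported here. Alternatives covered the window, the order, missing libraries, joined peaks, each line left out and the line as a block. Every gene of the family is named, and of other lists those past the threshold, up to 4 for each contrast. The family, the lists and the tests were chosen with earlier results of these data known. Python 3.11.15, NumPy 2.4.6, pysam 0.24.0 and Matplotlib 3.10.9 were used.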

Additional observations from a re-analysis of the deposited data

Results flagged for a closer look

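A difference of effects between genotypes was tested with interaction contrasts that were added after the data were seen, over all promoters in limma. The effect of XAV at day 5 differed between KO and WT cells for Lhx1 (KO minus WT -5.43 ± 0.68, adjusted p = 0.000167), Lmx1b (3.31 ± 0.81, adjusted p = 0.0198) and Lhx6 (3.06 ± 0.61, adjusted p = 0.00848). The step from day 0 to day 5 differed between KO and WT cells in place for Lhx1 (5.53 ± 0.68, adjusted p = 0.000128), Lmx1b (-6.27 ± 0.81, adjusted p = 0.00015), Lhx6 (-2.02 ± 0.61, adjusted p = 0.0416) and Lhx3 (1.77 ± 0.54, adjusted p = 0.0465), and in width for Lmx1b (2.75 ± 0.55, adjusted p = 0.0247). With joined peaks both Lhx1 results and that of Lhx3 stayed past the threshold, and those of Lhx6 and Lmx1b did not. The Lhx3 value rests on 1 KO library at day 0, since KO15 had no peak there. It was lost with a 3 kb window, where KO15 has a peak (1.14, adjusted p = 0.253), and without WT70 or WT72, and turned to -0.74 by the highest point, so no difference is read from it. Both Lhx1 results were lost on a percentile scale only. The Lmx1b and Lhx6 results for XAV were lost when any KO or WT line was left out, and those for the step to day 5 were lost without KO15, KO25, WT70 or WT72 for Lhx6 in place and Lmx1b in width. No interaction of MUT with WT passed for any of the 10 genes. Groups held 2 libraries, too few to look for a library that stands apart.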

How the results depend on the processing

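For KO minus WT over all stages, 145 promoters passed, against 66 with a peak in all 30 libraries, 15 when ordered by the highest point and 27 on a percentile scale. For MUT minus WT the 71 became 17, 27 and 5, for KO minus MUT the 130 became 69, 7 and 0, for XAV at day 5 the 244 became 124, 126 and 13, and for day 5 minus day 0 in WT the 267 became 99, 156 and 74. The 10 width calls of KO minus WT became 6 with a peak in all 30 libraries. Leaving out a line in turn gave 65 to 114, 9 to 61, 38 to 87, 120 to 196 and 70 to 115 place calls in these 5 comparisons, and 0 to 10 (KO) and 0 to 3 (MUT) width calls against WT. With the line as a replicate block the place counts were 145, 69, 130, 244 and 268, and the width counts 13 and 0. With the line as a fixed term, 108 promoters passed for XAV. Presence gave 0 calls under every alternative run.

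Of 52 member results past the threshold, 4 stayed past it under every alternative run (Lhx1 KO minus WT at day 5, Lhx1 day 5 minus day 0 in KO, Lmx1b KO minus WT after day 2 and Lmx1b day 5 minus day 0 in WT), and 11 reversed under some. Ordered by the highest point, Lhx3 turned to -0.30 for KO minus WT at day 5, 0.0189 for day 5 minus day 0 in WT and -0.74 for that step in KO less WT. Lhx6 turned to 1.38 for KO minus WT at day 5, 1.17 for XAV in WT, -0.78 for the XAV effect in KO less WT and 1.21 for the step to day 5 in KO less WT, and Lhx9 to -0.65 for KO minus MUT at day 0. Joining peaks up to 3 kb apart, an alternative chosen after seeing the data, turned Lhx6 to 0.0382 for XAV in WT, and Lmx1b to -0.0963 for KO minus WT at day 0, -0.0336 for KO minus MUT at day 0 and 1.82 for day 5 minus day 0 in KO. The cause was not tested. Depth is unknown and no counting error could be given.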
